A study of Homo sapiens with 6 samples.

Results

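The F-box, KLHL and cullin genes encode the parts of the largest class of ubiquitin ligases, and 101 of them were measured here among 14884 genes. They were chosen by symbol (FBXO, FBXL, FBXW, KLHL and CUL genes with a number, SKP1 and SKP2), counting protein-coding genes with a probe set that carries a single symbol. The set holds 33 FBXO, 15 FBXL, 9 FBXW and 35 KLHL genes, 8 cullins and SKP1. A pseudogene and 2 non-coding RNA genes that match the same letters were not counted. The 6 arrays profiled RNA of MM.1S, an established human line of multiple myeloma, which is a cancer of antibody-secreting plasma cells. All cells, controls included, had a 1 h pulse of Cfz, an abbreviation commonly used for the proteasome inhibitor carfilzomib. Then followed 12 h in the solvent DMSO (3 arrays) or in 10 µM ATRA (3 arrays), that is all-trans retinoic acid, which activates retinoic acid receptors. Cells without Cfz were not analysed here, so each value describes ATRA on top of proteasome inhibition in 1 cell line. The comparison asks how the genes of these ligases differ between ATRA and DMSO.

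In a cullin ligase a long scaffold protein, the cullin, holds an enzyme that carries ubiquitin at one end and a substrate receptor at the other. CUL1 binds its receptors through SKP1, and these receptors are the F-box proteins, named FBXW when they carry WD40 repeats, FBXL when they carry leucine-rich repeats and FBXO when they carry other domains. CUL3 binds receptors with a BTB domain, many of which also carry Kelch repeats and are named KLHL. The receptor decides which protein is sent to the proteasome, the machine that Cfz blocks.

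The arrays had medians of 9.40 to 9.76 and highest values of 13587 to 14038 intensity units, on the linear scale of the deposited values. Of 8 measured plasma cell markers, 7 were brighter than the median gene and POU2AF1 was not. SDC1, CD38 and XBP1 rose by 0.84, 1.95 and 0.54 on the log2 scale (limma, adjusted p under 0.05), and their part in the results below was not tested. SDC1 and CD38 passed in all 6 fits that left out 1 array, and XBP1 in 0 of them (adjusted p 0.0584 to 0.0758). The remaining plasma cell markers did not pass. MAF (0.39) and MZB1 (0.25) were higher in mean with ATRA, and SLAMF7 (-0.31), POU2AF1 (-0.25) and IRF4 (-0.17) were lower. The 18 measured markers of other cell types had mean log2 intensities of 2.21 to 5.71, with 0 past the test in limma, and their summed intensity ran from 246 to 306 on the DMSO arrays and from 239 to 262 on the ATRA arrays. Of the 101 ligase genes, 55 had mean log2 intensities no higher than 5.71, and for these a difference may be too dim to measure. The labels do not state that replicates were cultured separately, and p-values therefore reflect only the spread between these samples, which may be technical. In bulk RNA a change in the share of cells and a change in RNA per cell cannot be told apart.

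FBXO32 rose about 8-fold with ATRA and stood alone in its family. Beside it, KLHL24 rose 2.09-fold, FBXO16 1.66-fold and KLHL6 1.55-fold, and FBXO5 fell. These 5 were the genes of the set that passed an adjusted p of 0.05 in limma with Benjamini-Hochberg adjustment over all genes, 4 higher and 1 lower. They make up 4.95% of the set, where 3.8% of all genes passed (1.73% higher and 2.07% lower), so the share called in the set was near that of all genes. Among the 69 ligase genes brighter than the median gene 4 passed, or 5.80%, against 6.96% of the 7442 genes of that brightness. The median log2 difference of the set was 0.00027, against -0.015 for all genes, with 51 genes higher and 50 lower in mean. The interquartile range was -0.17 to 0.15, against -0.16 to 0.12 for all genes. The groups did not overlap for 25 of the 101 genes, or 24.8%, where 24.7% of all genes did not overlap.

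**Figure D1:**
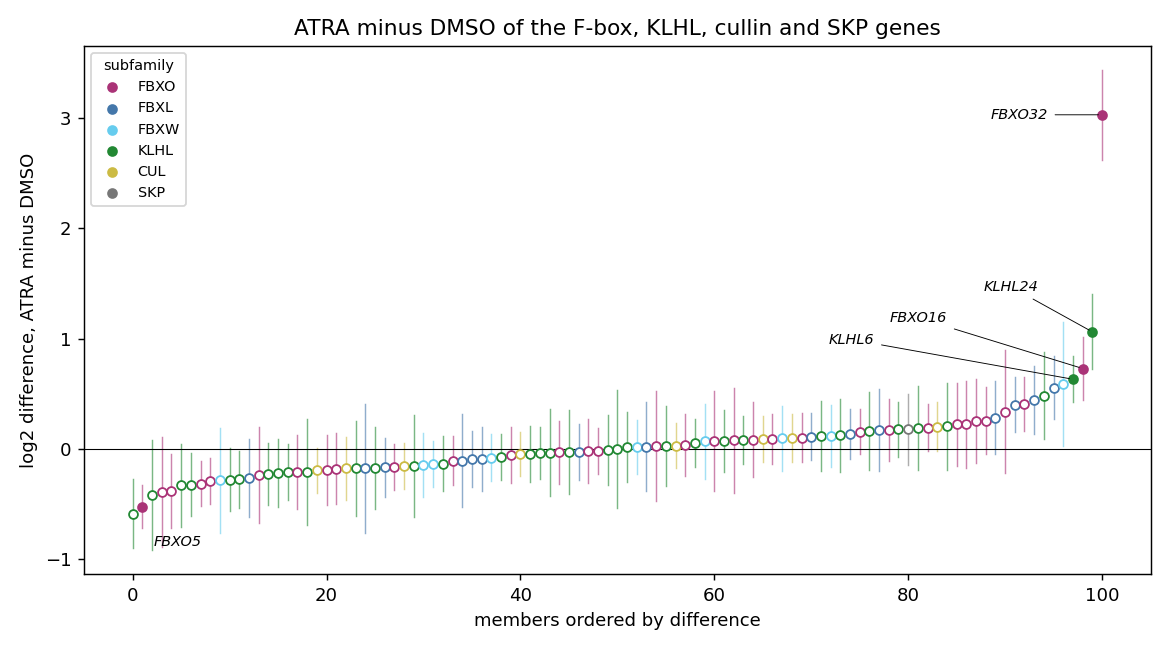
Log2 difference, ATRA minus DMSO, of the 101 ligase genes in rising order, with 95% intervals from limma; colour gives the subfamily and filled points passed an adjusted p of 0.05. FBXO32 at 3.03 lies far above the next gene, KLHL24 at 1.06, and the 96 open points lie between -0.59 and 0.59.

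FBXO32, also called atrogin-1 or MAFbx, is the F-box protein best known for protein breakdown in wasting muscle. Its intensities were 48.8, 65.8 and 77.6 on the DMSO arrays and 484, 567 and 496 on the ATRA arrays. Every ATRA array was more than 6 times as bright as the brightest DMSO array. The DMSO arrays spread more on the log2 scale (5.98 ± 0.34) than the ATRA arrays (9.01 ± 0.12; SD, n = 3 each). The log2 difference was 3.03 (SE 0.17, 95% interval 2.62 to 3.44, limma adjusted p = 0.000290), an 8.17-fold rise. Its DMSO mean of 5.98 is close to the brightest marker of other cell types (5.71), which makes the size of the fold uncertain. It passed in all 6 fits that left out 1 array, with differences of 2.85 to 3.18 and adjusted p up to 0.00343.

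The distance between FBXO32 and its family was taken from changes, with each gene set to 0 at its own DMSO mean, since levels of different probe sets cannot be compared. On the 3 ATRA arrays FBXO32 stood at 2.94, 3.17 and 2.98 on this log2 scale. The median of the other 56 F-box genes stood at -0.026, -0.0029 and 0.016. The highest of those 56 was FBXW10B on ATRA array 1 (0.85) and FBXO16 on ATRA arrays 2 and 3 (0.93 and 0.72). FBXO32 was therefore over 2 log2 units above any other F-box gene on each ATRA array. The other 56 F-box genes had a median difference of 0.022 and a range of -0.52 to 0.73, with 30 higher and 26 lower in mean.

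FBXO25, the closest relative of FBXO32 in sequence, had intensities of 73.4, 61.9 and 47.4 with DMSO and 55.3, 81.2 and 96.6 with ATRA. The groups overlapped, and the difference of 0.34 did not pass (95% interval -0.22 to 0.89, limma adjusted p = 0.524). Several other adaptors are known from skeletal muscle, and 6 of them were grouped with FBXO32 after their values were seen. FBXO30, which like FBXO32 is linked to muscle atrophy, was at 321, 318 and 345 with DMSO and at 252, 268 and 271 with ATRA. Its groups did not overlap, but the difference of -0.32 did not pass (limma adjusted p = 0.115), although it did in 3 of 9 other settings. FBXO21 (-0.057), FBXO40 (-0.39), KLHL31 (-0.21), KLHL40 (-0.038) and KLHL41 (-0.13) did not pass either. Of these 7 muscle-linked adaptors FBXO32 was the 1 with a higher mean, and 3 of the 7 were brighter than the median gene. This count rests on a choice made with the values known, and another choice could give another count. FBXO40, KLHL31, KLHL40 and KLHL41 were dimmer than the median gene, so the signs of their differences are uncertain. The 3 measured skeletal muscle markers, MYOG, MYOD1 and DES, had mean log2 intensities of 3.45 to 5.71, and 0 passed in limma. Their summed intensity was 59.7 to 108 on the DMSO arrays and 55.1 to 88.0 on the ATRA arrays.

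**Figure D2:**
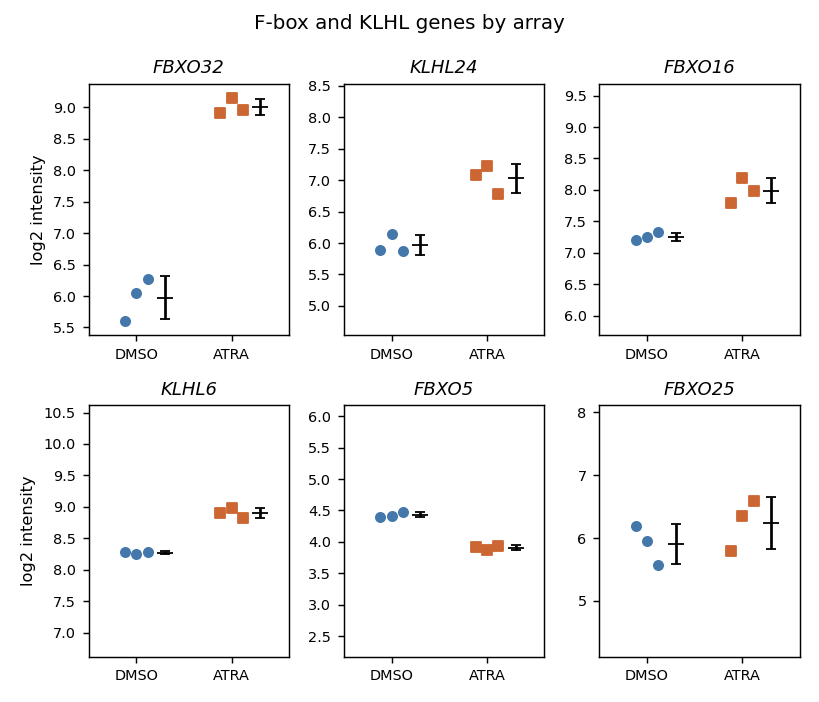
Log2 intensity on each array, DMSO (circles) and ATRA (squares), for the 5 genes past the test and FBXO25; bars give mean ± SD over 3 arrays and each panel spans 4 log2 units. The groups are separate in the first 5 panels, with FBXO32 between 5.61 and 6.28 with DMSO and between 8.92 and 9.15 with ATRA, and they overlap for FBXO25.

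KLHL24 and KLHL6, the 2 KLHL genes that rose, are direct neighbours on chromosome 3 among protein-coding genes in RefSeq. KLHL24 is a CUL3 receptor known for its part in the turnover of keratin in skin, and KLHL6 is a CUL3 receptor of B lymphocytes needed for the germinal centre response. KLHL24 was at 59.0, 70.9 and 58.4 with DMSO and at 135, 150 and 109 with ATRA. All ATRA values lay above all DMSO values, with a log2 difference of 1.06 (SE 0.15, 95% interval 0.72 to 1.40, limma adjusted p = 0.0104). Its DMSO mean log2 intensity of 5.97 is close to the brightest marker of other cell types (5.71), which makes the size of the fold uncertain. KLHL24 lost its call without DMSO replicate 1 (adjusted p = 0.0533) and without DMSO replicate 3 (0.0515), at differences of 1.02 and 1.01. KLHL6 was at 310, 303 and 313 with DMSO and at 478, 506 and 451 with ATRA. Its DMSO arrays were close together and clearly apart from the ATRA arrays, with a log2 difference of 0.63 (SE 0.089, 95% interval 0.42 to 0.84, limma adjusted p = 0.0119). It lost its call without DMSO replicate 1, 2 or 3 or ATRA replicate 1, with adjusted p of 0.0506 to 0.0535 and differences of 0.62 to 0.64.

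The measured genes around this pair did not pass. YEATS2, the next gene beyond KLHL24, had a difference of -0.11 (limma adjusted p = 0.679) and MAP6D1 one of 0.12 (adjusted p = 0.741). On the side of KLHL6, MCF2L2 was at -0.044 (adjusted p = 0.943) and LAMP3 at 0.62 (adjusted p = 0.238). All ATRA values of LAMP3 lay above its DMSO values, as they did for 9.86% of all genes. B3GNT5, the gene next to KLHL6 on that side, was not measured. Counting 3 protein-coding genes on each side of each of the 5 called genes, and leaving those 5 out, 17 further neighbours were measured. Of these 1 passed, PNOC, where 3.8% of all genes passed. PNOC, the gene of a neuropeptide precursor near FBXO16, rose by 0.98 on the log2 scale (limma adjusted p = 0.0231). It lost its call without DMSO replicate 1 or 3 or ATRA replicate 1 or 3 (adjusted p 0.0721 to 0.0875). KLHL38, the next protein-coding gene to FBXO32 and itself a Kelch gene of the set, was at 7.05, 6.87 and 8.13 with DMSO and at 7.75, 6.80 and 6.78 with ATRA. Its groups overlapped (difference -0.046, limma adjusted p = 0.873), at a brightness below the median of the arrays.

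The 250 bases before the transcription starts of KLHL24 and KLHL6 are shown because these neighbours rose together, and those of FBXO5 because it is the gene that fell. They come from RefSeq (GRCh38.p14), run 5′ to 3′ on the strand of the gene, and have matches to CCAAT or TTTGAA on either strand in capitals. Of the 5 called genes 3 had a promoter entry, and for FBXO5 the more downstream of its 2 RefSeq starts is shown.
KLHL24 (chr3:183635373-183635622, + strand): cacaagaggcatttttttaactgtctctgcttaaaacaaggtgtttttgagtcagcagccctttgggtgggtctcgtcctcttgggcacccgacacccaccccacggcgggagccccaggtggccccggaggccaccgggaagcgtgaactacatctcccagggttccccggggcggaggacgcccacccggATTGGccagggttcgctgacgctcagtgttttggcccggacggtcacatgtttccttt
KLHL6 (chr3:183555707-183555956, - strand): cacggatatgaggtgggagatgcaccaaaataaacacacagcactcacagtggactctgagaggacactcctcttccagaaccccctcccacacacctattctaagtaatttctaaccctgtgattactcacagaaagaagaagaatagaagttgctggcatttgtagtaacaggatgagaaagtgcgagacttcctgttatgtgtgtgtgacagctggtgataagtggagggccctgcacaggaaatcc
FBXO5 (chr6:152983042-152983291, - strand): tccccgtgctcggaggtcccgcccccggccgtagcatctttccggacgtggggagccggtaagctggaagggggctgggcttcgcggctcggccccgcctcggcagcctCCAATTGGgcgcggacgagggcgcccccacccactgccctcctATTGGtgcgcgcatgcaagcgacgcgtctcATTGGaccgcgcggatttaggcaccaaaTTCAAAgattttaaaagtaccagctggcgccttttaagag
CCAAT is the box bound by the factor NF-Y and TTTGAA is the core of an element common in promoters of cell cycle genes, both searched after the expression values were seen. The FBXO5 window held 4 matches to CCAAT, of which 2 overlap on opposite strands, and 1 to TTTGAA. The window before the other, more upstream FBXO5 start, which is not printed, held 0 of either. KLHL24 held 1 match to CCAAT and KLHL6 held 0 of either. Over 35116 windows of the same length, 32.0% held at least 1 match to CCAAT and 13.3% at least 1 to TTTGAA. The share of windows with 4 matches to CCAAT, or with both motifs, was not counted, so these shares do not show whether the FBXO5 window is unusual. The forkhead core GTAAACA (2.98% of windows), the nuclear receptor core site AGGTCA (12.1%) and its direct repeat spaced by 5 bases (0.00285%) had 0 matches in these windows, which says only that these letters are not in them.

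FBXO16, an F-box gene, rose from 147, 152 and 160 with DMSO to 221, 291 and 252 with ATRA. The ATRA arrays spread more than the DMSO arrays but did not reach down to them. The log2 difference was 0.73 (SE 0.12, 95% interval 0.45 to 1.01, limma adjusted p = 0.0208). Its call held without ATRA replicate 1 and was lost in the other 5 fits that left out 1 array, without DMSO replicate 1, 2 or 3 or ATRA replicate 2 or 3 (adjusted p 0.0539 to 0.0874). The protein-coding genes directly beside FBXO16 are ZNF395 and FZD3, and neither passed. ZNF395 was at -0.14 (limma adjusted p = 0.681) and FZD3 at 0.36 (limma adjusted p = 0.143). All ATRA values of FZD3 lay above its DMSO values, as they did for 9.86% of all genes.

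FBXO5, also called EMI1, is the F-box protein that inhibits the anaphase-promoting complex, the other large ubiquitin ligase of the cell cycle, from S phase until mitosis. It fell from 21.2, 21.4 and 22.2 with DMSO to 15.1, 14.6 and 15.3 with ATRA. The arrays of each group were close together and the groups were apart, by -0.52 on the log2 scale (SE 0.084, 95% interval -0.72 to -0.33, limma adjusted p = 0.0187). These are dim values, with a mean log2 intensity of 4.43 with DMSO and 3.91 with ATRA, in the range of other cell types' markers (2.21 to 5.71), and with 16 units added before log2 the difference was -0.28, still past the threshold. The call was lost in all 6 fits that left out 1 array (adjusted p 0.0581 to 0.0803), while the difference stayed between -0.54 and -0.50.

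Among the remaining FBXO genes 30 did not pass, 16 of them higher and 14 lower in mean. FBXO8, whose protein also carries a Sec7 domain, was at 117, 123 and 103 with DMSO and at 143, 153 and 157 with ATRA. Its groups did not overlap, and the difference of 0.41 passed in 3 of 9 other settings but not in the chosen one (limma adjusted p = 0.0870). FBXO6, which binds glycoproteins sent out of the endoplasmic reticulum for degradation, was at 35.8, 39.2 and 42.8 with DMSO and at 24.7, 33.9 and 32.4 with ATRA (difference -0.38, limma adjusted p = 0.222). FBXO11, the receptor of the B cell repressor BCL6 and named here after its values were seen, was at 341 ± 13.6 with DMSO and 337 ± 15.3 with ATRA (SD, n = 3). Its difference of -0.017 had a 95% interval of -0.23 to 0.19.

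Of the FBXL genes 0 of 15 passed in limma. An unadjusted p under 0.05 was found for 3 of 15, a share near the 17.9% of all genes. These were FBXL20, FBXL12 and FBXL15, and in all 3 the ATRA arrays lay above the DMSO arrays. They were picked by p-value, which makes separate groups likely. Of the FBXL genes 20% were apart and higher and 0 apart and lower, against 9.86% and 14.8% of all genes. FBXL15 was dimmer than the median gene, with mean log2 intensities of 3.69 with DMSO and 4.09 with ATRA. FBXL20, known for the turnover of a protein of the presynaptic active zone, was at 51.9, 48.9 and 60.1 with DMSO and at 83.9, 82.7 and 69.5 with ATRA. Its difference of 0.55 lay just outside the threshold (limma adjusted p = 0.0574) and passed in 4 of 9 other settings. FBXL12 was at 0.44 (adjusted p = 0.128) and FBXL15, a receptor of the ligase SMURF1, at 0.40 (adjusted p = 0.102). The lowest were FBXL6 (-0.26), FBXL19, which binds unmethylated CpG DNA (-0.17), and FBXL5, the iron sensor that controls iron regulatory protein IRP2 (-0.17), with adjusted p of 0.427, 0.779 and 0.509. The difference of FBXL19 turned to 0.011 without ATRA replicate 2.

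Of the FBXW genes 0 of 9 passed in limma, and 1 of 9, or 11.1%, had an unadjusted p under 0.05, against 17.9% of all genes. This was FBXW10B, at 12.7, 10.5 and 19.0 with DMSO and at 24.6, 21.5 and 16.4 with ATRA, whose groups overlapped (difference 0.59, limma adjusted p = 0.254). It is a close copy of FBXW10, at 0.069, so both values are uncertain. FBXW12 and FBXW8, the partner of CUL7, were at 0.12 and 0.094. FBXW4 (-0.29), FBXW9 (-0.15) and FBXW2 (-0.14) were lowest, with adjusted p of 0.528, 0.601 and 0.480.

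Among the KLHL genes 2 of 35 passed, 15 were higher and 20 lower in mean, and the median difference was -0.038. The share called was 5.71%, where 3.8% of all genes passed and 6.96% of those brighter than the median gene, as 21 of the 35 were. KLHL25, the CUL3 receptor of ATP citrate lyase and of the translation repressor 4E-BP1, had the lowest difference of the whole set, -0.59. It was at 25.8, 26.6 and 25.9 with DMSO and at 14.3, 19.4 and 18.9 with ATRA, groups that did not overlap. It lay outside the threshold (limma adjusted p = 0.0614) and passed in 4 of 9 other settings, at -0.33 where 16 units were added before log2. KLHL9, a CUL3 receptor that acts on Aurora B in mitosis, was at 60.9, 61.4 and 40.7 with DMSO and at 77.2, 70.4 and 76.2 with ATRA (difference 0.48, adjusted p = 0.195). KLHL26 (-0.42) and KLHL3, the receptor of the WNK kinases (-0.33), had adjusted p of 0.373 and 0.347.

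No scaffold passed. Of the 8 measured cullins 0 passed in limma and 0 had an unadjusted p under 0.05, where 17.9% of all genes did, and 8 genes are too few to be told from that share. Their differences ran from -0.20 to 0.20. CUL1, the scaffold of F-box receptors, was at 1022, 990 and 1050 with DMSO and at 984, 955 and 1020 with ATRA, a difference of -0.049 with a 95% interval of -0.25 to 0.15. CUL3, the scaffold of KLHL receptors, was at 249, 281 and 255 with DMSO and at 276, 293 and 270 with ATRA, a difference of 0.099 with an interval of -0.12 to 0.32. Both pairs of groups overlapped. The 2 CUL4 paralogues, which hold DDB1-linked receptors, lay on opposite sides. CUL4A was at 304, 332 and 312 with DMSO and at 273, 282 and 272 with ATRA (-0.20, limma adjusted p = 0.296). CUL4B was at 172, 170 and 193 with DMSO and at 212, 204 and 198 with ATRA (0.20, limma adjusted p = 0.328). In both the groups did not overlap, and neither passed. With CUL9, lower with ATRA, the groups did not overlap for 3 of the 8 cullins, or 37.5%. That was so for 24.7% of all genes and 37.7% of those brighter than the median gene, as all 8 cullins were.

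CUL2 (0.088) and CUL5 (0.029), which bind receptors through elongins, had 95% intervals of -0.12 to 0.29 and -0.18 to 0.24. CUL7 (-0.18) and CUL9 (-0.16) had adjusted p of 0.509 and 0.426. SKP1, the link between CUL1 and the F-box, was at 16.1, 16.3 and 19.3 with DMSO and at 20.4, 16.4 and 21.8 with ATRA. Its groups overlapped (difference 0.18, limma adjusted p = 0.566), and its low brightness limits what this probe set can show.

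**Figure D3:**
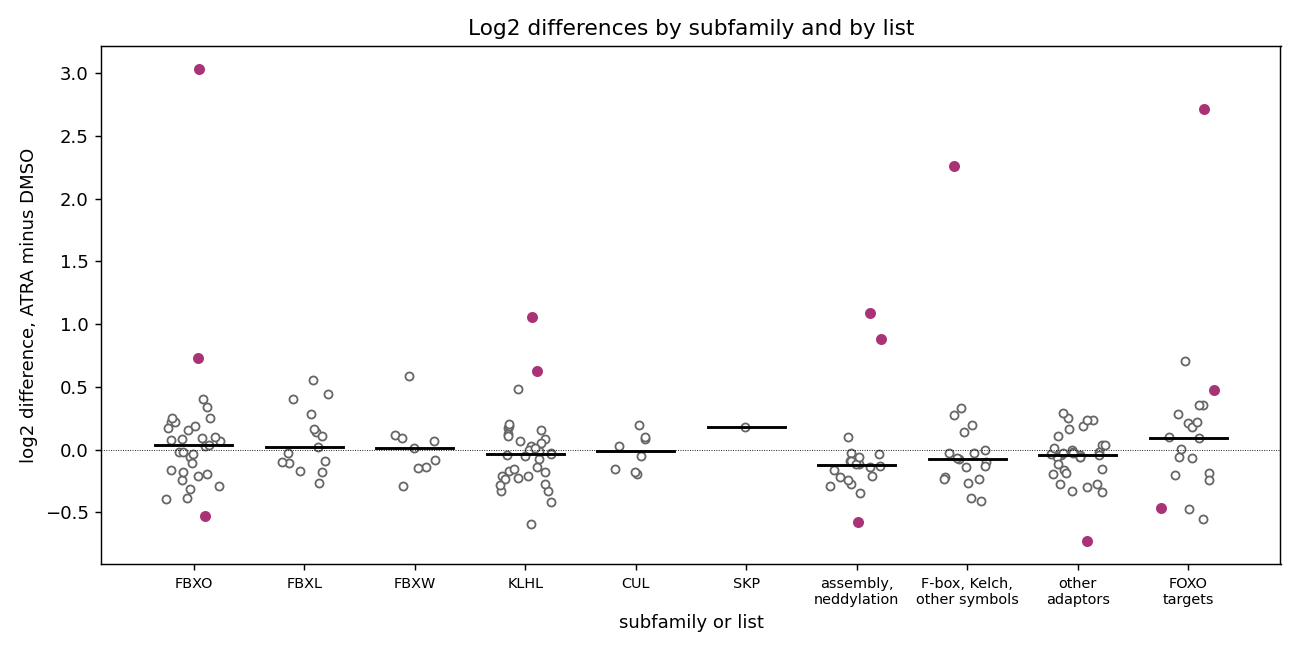
Log2 difference, ATRA minus DMSO, of each measured gene by subfamily (the first 6 columns) and by list (the last 4); filled points passed an adjusted p of 0.05, open points did not, and black bars are medians. Medians of the 5 subfamilies with several genes lie between -0.038 and 0.037, and that of the assembly and neddylation list lies at -0.12.

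Other genes of the pathway were read from lists. Cullins work only after the small protein NEDD8 is attached, the COP9 signalosome removes it, and CAND proteins exchange receptors. Of 20 measured genes of assembly, neddylation and ubiquitin transfer (31 were listed), 2 passed higher, 1 passed lower and 17 did not pass. That is 15% called, where 3.8% of all genes passed and 6.96% of those brighter than the median gene. The median difference was -0.12, against -0.015 for all genes, and 17 of the 20 were lower in mean. The groups did not overlap for 12 of them, 2 higher and 10 lower, where 9.86% of all genes were apart and higher and 14.8% apart and lower. The list is bright, with 18 of 20 above the median brightness of all genes. The 7442 genes of that brightness had a median of -0.051 and 59.2% were lower in mean, with 13.2% apart and higher and 24.5% apart and lower.

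UBE2G1, the ubiquitin-conjugating enzyme that extends chains for CUL4 ligases, rose 2.13-fold, from 1443, 1410 and 1457 with DMSO to 2900, 3152 and 3130 with ATRA. The groups were far apart (log2 difference 1.09, SE 0.087, limma adjusted p = 0.00124). ARIH2, a ubiquitin ligase that joins CUL5 complexes to tag their substrates first, was at 394, 399 and 387 with DMSO and at 738, 712 and 731 with ATRA (log2 difference 0.88, SE 0.082, limma adjusted p = 0.00238). The other 2 of its 3 probe sets were dim and stood at 0.047 and 0.090, so ARIH2 rose by its bright probe set and did not pass by the mean of all 3 (0.34, adjusted p = 0.137). CAND2, an exchange factor, fell from 15.1, 18.3 and 18.7 to 12.3, 11.7 and 10.7, a difference of -0.58 (limma adjusted p = 0.0430). These values are dim, and the call was lost in all 6 fits that left out 1 array (adjusted p 0.0509 to 0.141), and with 16 units added before log2 the difference was -0.27. CAND1, its better known relative, was at -0.29 and COPS3, a signalosome subunit, at -0.27, both with groups that did not overlap and with adjusted p of 0.118 and 0.135. They are named here after their values were seen.

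Among 19 measured F-box and Kelch genes that carry other symbols, of a list of 21, ENC1 rose and 18 did not pass. The share called was 5.26%, where 3.8% of all genes passed and 6.96% of those brighter than the median gene, as 14 of the 19 were. ENC1, a BTB and Kelch gene also called KLHL37, had log2 intensities of 4.64, 4.67 and 4.17 with DMSO and of 6.78, 6.79 and 6.71 with ATRA. The groups were far apart, with a log2 difference of 2.26 (SE 0.15, limma adjusted p = 0.000539), a 4.80-fold rise that passed in all 6 fits that left out 1 array. Its DMSO level, a mean log2 intensity of 4.49, is as dim as other cell types' markers, which makes the fold uncertain. The median difference of the list was -0.074. CCNF, cyclin F, which was the first F-box protein described, was at 205 ± 2.33 with DMSO and 156 ± 25.7 with ATRA (SD, n = 3; difference -0.41, limma adjusted p = 0.154). KEAP1, the CUL3 receptor of NRF2, was at -0.074 with a 95% interval of -0.30 to 0.15. CCNF and KEAP1 are named after their values were seen.

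Of 33 measured receptors of CUL4 and other cullins, in a list of 43, DTL fell, 0 rose and 32 did not pass, with a median of -0.041. The share called was 3.03%, where 3.8% of all genes passed and 6.96% of those brighter than the median gene. DTL, the CUL4 receptor that removes the replication licensing factor CDT1 in S phase, fell from 1060, 1185 and 1107 with DMSO to 687, 685 and 653 with ATRA. The groups were apart by -0.73 on the log2 scale (SE 0.090, limma adjusted p = 0.00726), and the call held in all 6 fits that left out 1 array. CRBN, the CUL4 receptor through which lenalidomide and pomalidomide act in myeloma, was at 308 ± 16.2 with DMSO and 308 ± 18.2 with ATRA (SD, n = 3). Its difference of -0.0012 had a 95% interval of -0.22 to 0.22, and it is named here after its values were seen.

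**Figure D4:**
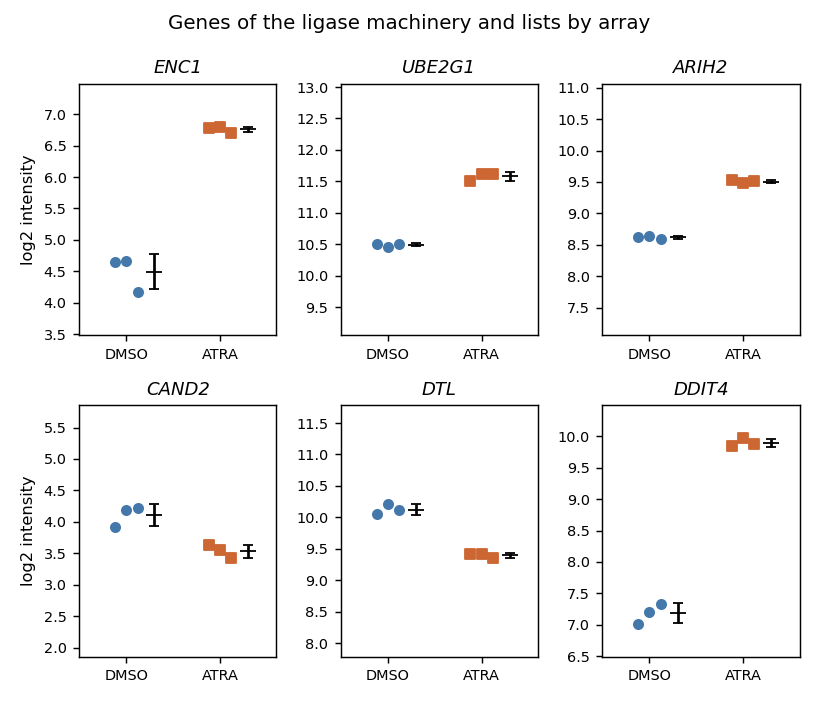
Log2 intensity on each array, DMSO (circles) and ATRA (squares), for 6 genes of the lists; bars give mean ± SD over 3 arrays and each panel spans 4 log2 units. The groups are separate in every panel, higher with ATRA for ENC1, UBE2G1, ARIH2 and DDIT4 and lower for CAND2 and DTL.

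FBXO32 is a well known target of FOXO transcription factors in muscle, and a list of 27 other FOXO genes and targets was read beside it. Of 20 measured, 2 rose, 1 fell and 17 did not pass, with a median of 0.096 and 12 higher and 8 lower in mean. That is 15% called, where 3.8% of all genes passed. Of the 20, 17 were brighter than the median gene, and 6.96% of genes of that brightness passed. The groups did not overlap for 9, with 35% of the list higher and 10% lower. Among genes of that brightness 13.2% were apart and higher and 24.5% apart and lower. A part of FOXO factors in these differences was not tested. DDIT4, an inhibitor of mTORC1 signalling, rose 6.56-fold, from 129, 148 and 161 with DMSO to 920, 1003 and 938 with ATRA (limma adjusted p = 5.07e-05). KLF2, a transcription factor of lymphocytes and myeloma cells, rose by 0.48 (limma adjusted p = 0.0381), and its relative KLF6 fell by 0.47 (adjusted p = 0.0342). Both lost their call in all 6 fits that left out 1 array, with adjusted p of 0.0719 to 0.126 for KLF2 and 0.0853 to 0.122 for KLF6, and KLF2 also lost it with arrays set to a common median (0.0530). FOXO3 was at 0.094 and FOXO1 at -0.20, with adjusted p of 0.879 and 0.825 and 95% intervals of -0.45 to 0.63 and -1.01 to 0.61, and both are named after their values were seen.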

How the data were processed

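Total RNA of 6 MM.1S samples was labelled with biotin by a whole-transcript kit for 1-colour arrays, per the labels. The authors deposited linear intensities, with 1 value for each probe set on each array. RMA and limma are named, without versions, per the submitters' processing notes, and the genome build is not given in the sources used here. Groups and replicate numbers come from the labels. The values, of 53617 probe sets, were turned to log2 with no pseudocount. Names came from the platform's annotation, which gives 16098 probe sets (30.0%) 1 symbol, and the brightest probe set stood for each of 14884 symbols. FBXL18, FBXO22 and KLHL42 have several, which differed in sign for FBXL18 (-0.11 and 0.10) and FBXO22 (-0.031 and 0.044). ATRA and DMSO were compared with limma 3.58.1 in R 4.3.3 (lmFit, eBayes, two-sided, no block, no filter), with Benjamini-Hochberg adjustment over all symbols and a threshold of 0.05. The steps were tested on simulated data. Of genes changed by 1 log2 unit (67 of 14884 simulated), 89.6% were recovered, and of those changed by 0.5 (67), 13.4%. The only other changed genes were 66 changed by 2 log2 units, while 565 genes were called in the data. The share recovered depends on how many genes change, so these shares may not hold for the data. The number of arrays limits the precision.

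Named were the called genes, all cullins and SKP1, and the 3 highest and 3 lowest differences of the FBXO, FBXL, FBXW and KLHL subfamilies, with the called genes of the 4 lists. The members and lists were chosen with earlier results of these data known. Alternatives were a replicate block, quantile normalization or a common median, dropping each array in turn, a filter on the dimmest 50% or 25% of genes, 16 units added before log2, eBayes with trend and robust, the mean of probe sets, and limma's treat at 1.2-fold. The labels do not state whether replicate numbers pair the arrays. Correlations of deviations across genes were 0.0087 to 0.017 for same-numbered arrays and -0.014 to -0.0027 for differently numbered arrays. Values this small over all genes, many of them dim, cannot decide whether the arrays were paired.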

Additional observations from a re-analysis of the deposited data

How the results depend on the processing

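FBXO32 passed in every alternative that was run, and every other call among the ligase genes was lost in at least 1 fit with an array left out. The median of the ligase genes moved by less than its spread over arrays in every alternative. Without 1 array the ligase genes called higher numbered 1 to 3 and lower 0 to 0, all genes called 207 to 317 and FOXO genes and targets called 1 to 1. Such fits have fewer samples. FBXL19 then ran from -0.42 to 0.011, its sign turned without ATRA replicate 2. For the 3 same-numbered pairs the labels give a shared number and do not state a pairing. With the replicate block 200 genes were called, of them 2 ligase genes higher (FBXO32 and KLHL24) and 0 lower, and 1 gene of the FOXO list.

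Without the dimmer 50% of genes 1143 were called, with 3 ligase genes lower, 5 genes of the assembly list, 2 of the other cullin receptors and 6 of the FOXO list. Without the dimmer 25%, 2 ligase genes were lower. With 16 units added before log2 1218 genes were called, with 3 ligase genes lower, 8, 2 and 5 genes in the same lists, and FBXO32 stood 2.73 above the median of the other F-box genes in place of 3.01. With trend and robust 1327 were called, with 7 ligase genes higher and 3 lower, 9 genes of the assembly list, 2 of the F-box and Kelch genes with other symbols and 6 of the FOXO list. By treat at 1.2-fold 169 were called, with 2 ligase genes higher and 0 lower, 0 other cullin receptors and 1 gene of the FOXO list. The cause of these shifts was not tested. Depth here is signal over background, which limits the 55 dim ligase genes.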
